A study of Mus musculus with 3 samples.

Results

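The comparison of Cd74-transfected with empty-vector-transfected Hepa1c1c7 cells uses 2 of the 3 arrays of this study, 1 for each vector. Hepa1c1c7 is a mouse hepatoma line. The cells of the first group carried an empty vector, those of the other a vector for Cd74, and a further group, used here for side-by-side values only, a vector for Tmem54. The labels give no genotype beyond the line, no promoter, dose or time of the transfection, and no number of cultures or clones. Total RNA labelled with Cy3 was read on Agilent mouse arrays of 1 colour. A gene entered the comparison where a probe that was no control and carried no outlier flag was well above background on both arrays, a call the scanner software makes against the local background. This left 14733 of the 24935 genes with a symbol on the array. With 1 array per vector no spread between cultures exists, so no difference was tested and every value below describes these arrays.

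Cd74 is the invariant chain that binds newly made MHC class II molecules in the endoplasmic reticulum and guides them to the endosome. A share of it reaches the cell surface, where it binds the cytokine MIF together with CD44. A hepatoma line is not an antigen-presenting cell, the kind of cell in which Cd74 is best known. The pathways described first below are stress pathways of liver cells: ATF4 is the transcription factor made when eIF2alpha kinases slow translation, and it acts on genes of amino acid supply, while NRF2 acts on genes of thiol and heme metabolism.

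Each value is a processed signal, a linear intensity, and each difference is the log2 signal with the Cd74 vector minus that with the empty vector after each array was centred on its 75th percentile. A difference of 1 is thus 2-fold. The percentiles were 686.8 (empty) and 656.4 (Cd74), so that equal signals give a small difference above 0. Where a gene had several probes, the brightest stands for it. The Cd74 probe itself read 26.8 on the empty-vector array against 10855.5 after Cd74 transfection, 424-fold higher, and 22.4 on the Tmem54 array. Of the 10 measured genes in the list of Cd74, MIF and its receptors and MHC class II, only Cd74 passed 1.5-fold. The ligand gene Mif had signals of 33384 and 32756.5, a difference of 0.04, and the receptor partner Cd44 had 9688 and 10871, a difference of 0.23. The arrays had 57.2% (empty) and 56.1% (Cd74) of their spots well above background, and no spot was saturated. Between replicate spots of 288 probes, the median SD of the difference was 0.03 (log2). The scanner's model error of a difference had a median of 0.20 over the genes and of 0.25 in the quartile of lowest signal, and both errors cover noise within the arrays only.

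Of the 14733 genes, 63 were at least 2-fold higher with the Cd74 vector (0.428%) and 132 at least 2-fold lower (0.896%). At 1.5-fold the counts were 357 higher (2.42%) and 476 lower (3.23%), and 7857 genes (53.3%) were above 0. The median of all genes was 0.02. Differences were more frequent among dim genes: from the lowest to the highest signal quartile, 36, 16, 6 and 5 genes were at least 2-fold higher, and 89, 35, 7 and 1 at least 2-fold lower. The 1148 lncRNA genes held 4 that were 2-fold or more higher and 8 lower. The genes are grouped below in 68 lists by function, which hold 1681 of the genes compared and 59 of the 195 that differed by 2-fold. Every count of list members can be read against the percentages above, and a list's median against 0.02.

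**Figure D1:**
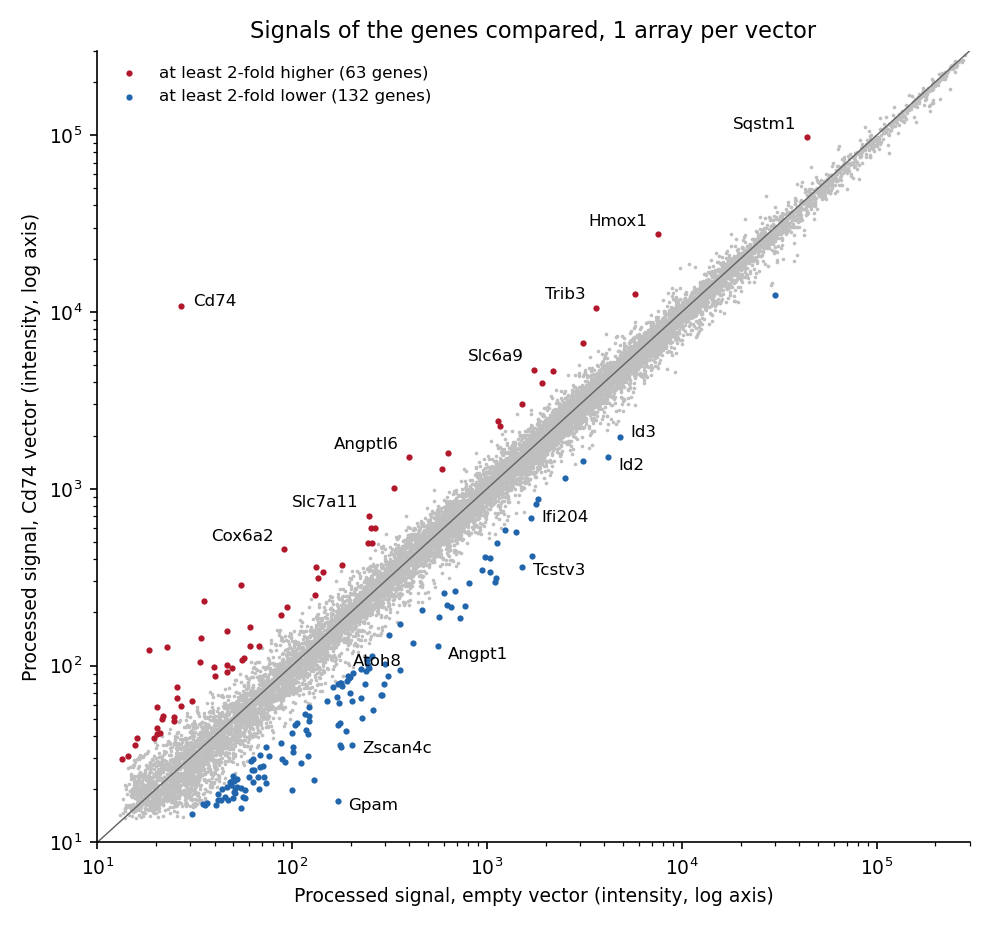
Processed signal with the Cd74 vector (vertical, log axis) against the empty vector (horizontal, log axis) for 14733 genes, 1 array each. The 63 red and 132 blue genes are at least 2-fold higher and lower; most blue points lie at low signal, while Cd74, Hmox1 and Sqstm1 stand above the diagonal.

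The genes of the ATF4 response were higher at several steps. Trib3, a pseudokinase that binds ATF4 and AKT and that the study's description names, had a signal of 3624 on the empty-vector array and 10582 on the Cd74 array, a difference of 1.61 (model error 0.20; probe at chr2:152163161-152163220, build mm9). It was the highest of the listed genes on AKT and tribbles, of which 23 of 25 stayed under 1.5-fold. Atf4 itself had signals of 63631 and 83570.1, a difference of 0.46. Its partners and targets among transcription factors followed in size: Atf3 had 382.5 and 704, a difference of 0.95, Ddit3, which encodes the stress factor CHOP, had 1046 and 1855, a difference of 0.89, and Atf5 had 26961 and 45512, a difference of 0.82. The next-brightest probes gave 0.74 for Atf5 but 0.38 for Ddit3 and 0.06 for Nupr1, a chromatin-associated stress protein whose brightest probe gave 0.79. Ppp1r15a, the phosphatase subunit GADD34 that restores translation, had 5767.5 and 12704, a difference of 1.2. Chac1, which degrades glutathione, had 2188 and 4659, a difference of 1.16, and the secreted stress cytokine gene Gdf15 had 11734 and 17989, a difference of 0.68. Of the 21 regulators measured, 8 were at least 1.5-fold higher and 0 lower, with a median of 0.18. The kinase gene Eif2ak2, which is also an interferon-stimulated gene, was the lowest of them at -0.42.

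Promoter sequence was available for 11648 of the genes compared, taken from RefSeq (GRCm38.p6) as 250 bases before to 50 after each annotated start. The C/EBP-ATF response element, which ATF4 binds as a dimer with C/EBP factors, was searched as TGATGNAA on both strands. It was found in 365 of these genes (3.13%) and in 6 of the 19 ATF4 regulators that have a promoter here, namely Atf3, Chac1, Jdp2, Nupr1, Trib3 and Vldlr. The median difference was 0.87 for these 6 and 0.18 for the others. It was also found in 3 of 14 amino acid transporter genes, whose median was 0.17 against 0.21 for those without it, and in 5 of 16 cytosolic tRNA synthetase genes, with 0.10 against 0.12. Of 18 genes of serine, one-carbon and proline synthesis it was in 3, with a median of 0.69 against -0.03. Higher values thus went with the element in 2 of the 4 lists. A match describes letters and shows no binding. The following lines show it in capitals in 4 genes that were higher with the Cd74 vector, of which Atf3 and Asns were chosen after their values were seen.
Slc7a11, chr3:50443642-50443709, minus strand: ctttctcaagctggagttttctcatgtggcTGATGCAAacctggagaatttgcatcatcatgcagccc
Chac1, chr2:119351019-119351086, plus strand: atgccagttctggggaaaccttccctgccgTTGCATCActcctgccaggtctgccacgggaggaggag
Atf3, chr1:191183406-191183473, minus strand: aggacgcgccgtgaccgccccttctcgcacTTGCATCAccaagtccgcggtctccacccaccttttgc
Asns, chr6:7693210-7693262, minus strand: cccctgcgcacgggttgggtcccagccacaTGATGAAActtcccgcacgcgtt
The capitals begin 66 bases upstream of the annotated start in Slc7a11, 193 in Chac1, 110 in Atf3 and 23 in Asns. Slc7a11 holds a further match on the opposite strand, 47 bases upstream, visible in lower case as ttgcatca within the same line.

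Among transcripts of amino acid transporters, those for cystine and glycine carriers were higher and that for a neutral amino acid carrier was lower. Slc7a11, the cystine/glutamate exchanger, had a signal of 249 on the empty-vector array and 704.5 on the Cd74 array, a difference of 1.57, and its other probe gave 1.38. Slc6a9, the glycine transporter GLYT1, had 1748 and 4711, a difference of 1.5. Slc3a2, the heavy chain that Slc7a11 pairs with, had 14898 and 21448, a difference of 0.59, although its next-brightest probe gave 0.11. Slc7a2, a cationic amino acid transporter, had 251 and 368, a difference of 0.62. In the other direction, Slc38a1, a sodium-coupled glutamine carrier, had 637 and 313, a difference of -0.96, and the transporter gene Slc36a4 had 254 and 146, a difference of -0.73. Of 18 measured transporter genes, 4 reached 1.5-fold upward and 2 downward, with a median of 0.16. Relative to all genes the median was 0.14 by the brightest probe, and 0.01 over the 7 members with a next-brightest one.

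Among biosynthetic enzymes, Asns, asparagine synthetase, had 17966 and 27683, a difference of 0.69, with its other probe at 0.66. Aldh1l2, a mitochondrial folate enzyme, had 169 and 301, a difference of 0.90, and 0.67 after normexp, a model-based background correction that shrinks differences of dim probes. Psph, the last enzyme of serine synthesis, had 3843 and 5098, a difference of 0.47. Pycr1, of proline synthesis, had only 16.4 and 29.5, where the difference of 0.91 became 0.29 with normexp. The cytosolic folate enzyme gene Aldh1l1 went the other way, with 61.4 and 29.0, a difference of -1.02 (-0.44 with normexp). The list as a whole had a median of 0.10 over 22 genes. Cytosolic tRNA synthetases, which charge tRNAs with amino acids, showed a small shift that most members shared: 21 of 23 were above 0, against 53.3% of all genes, and none reached 1.5-fold. Their median was 0.12, with Aars at 0.55, Sars at 0.46 and Wars at 0.42. The next-brightest probe of Aars gave 0.37. The mitochondrial synthetases had a median of 0.07, with 12 of 17 above 0.

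The chaperones and folding genes of the endoplasmic reticulum were mostly below 0. Of 27 measured, 18 were below 0, 2 were at least 1.5-fold higher and the median was -0.06. The higher pair were Dnajb9, a co-chaperone made under IRE1, with 491 and 778, a difference of 0.73 (0.48 by its next-brightest probe), and the disulfide oxidase gene Ero1a, with 3356 and 4815, a difference of 0.59. Cytosolic heat shock proteins had a median of 0.01 over 18 genes, and their largest difference was -0.50 for Cryab, a small heat shock protein.

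The NRF2 genes differed in size rather than as a body. Hmox1, heme oxygenase, which breaks heme into biliverdin, iron and carbon monoxide, had a signal of 7550.1 on the empty-vector array and 27446 on the Cd74 array, a difference of 1.93 (model error 0.20; probe at chr8:77624406-77624466, mm9). Behind it and Slc7a11 came genes under 1.5-fold: Gclm, the regulatory subunit of glutathione synthesis, had 8975 and 12743, a difference of 0.57, Nqo1, a quinone reductase, had 482 and 685, a difference of 0.57, and Srxn1, which repairs peroxiredoxins, had 2773 and 3849.8, a difference of 0.54. The list held 31 measured genes, of which 19 were above 0 and 2 at least 1.5-fold higher, and its median of 0.07 was close to that of all genes. Thioredoxin, peroxiredoxin and pentose phosphate genes are among the other members of the list. Glutathione transferases had 3 of 20 members at least 1.5-fold higher, all of the alpha and omega classes. Gsta2 had 94.0 and 214, a difference of 1.25, and 0.88 with normexp. Gsto2 had 1512 and 3030.3, a difference of 1.07, and 0.77 by its other probe. Gsta3 had 294 and 476, a difference of 0.76. Iron and heme genes had a median of 0.10 over 22 genes with none at 1.5-fold, and the largest difference was 0.50 for Alas1, the first enzyme of heme synthesis, from 4803 to 6504.

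The antioxidant response element, searched as TGACNNNGC on both strands, was in 1909 of the genes with a promoter (16.4%) and in 10 of 27 NRF2 list members. The median difference was 0.01 for these 10 and 0.08 for the others. Among glutathione transferases it was in 3 of 19 (15.8%), a share close to that of all genes. These 3 were Gsta3, Gstm5 and Mgst1, with a median of 0.34 against -0.08 for those without it. Gsta2 and Gsto2 were not among the 3. Hmox1 was not among the 10; the window covers the proximal promoter only.

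Lysosome and autophagy genes showed a shift shared by nearly the whole list. Sqstm1, the autophagy receptor p62 that also binds the NRF2 inhibitor KEAP1, had 43789.6 and 97566, a difference of 1.22, which made it one of the brightest genes with a 2-fold difference. Of its other 2 probes, the next-brightest gave 1.21 and the lowest 0.24. Among the other 35 measured genes none reached 1.5-fold, yet 31 of all 36 were above 0 and the median was 0.26. Over the 19 members with a next-brightest probe, those probes had a smaller median of 0.14 relative to all genes.

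Early response genes were higher as a group. Nr4a2, an orphan nuclear receptor, had a signal of 256 on the empty-vector array and 494 on the Cd74 array, a difference of 1.01, and 1.05 by its other probe. Nr4a1 had 4647 and 7282.5, a difference of 0.71 and Myc, the growth factor responsive transcription factor, 7983.5 and 11639.9, a difference of 0.61. Of 29 measured early genes 27 were above 0, 4 were at least 1.5-fold higher and the median was 0.21. The exception by size was Ier5l, with 14251 and 8904, a difference of -0.61. In the MAPK list, which holds feedback phosphatases, receptors and ligands, values went both ways: Areg, a ligand of the EGF receptor, had 1238 and 2127, a difference of 0.85 and the phosphatase gene Dusp4 8875.5 and 12388, a difference of 0.55, but Fgf1 had 283 and 149, a difference of -0.86 and Spry1, a feedback inhibitor, 2709 and 1857, a difference of -0.48, and the median was -0.03 over 35 genes. The p53 targets had a median of 0.18 with 22 of 28 above 0. Gadd45b had 2956 and 5021, a difference of 0.83, Plk2 1676 and 2654, a difference of 0.73 and Trp53inp1 1969 and 2857, a difference of 0.60, with 0.39 for the other probe of Trp53inp1. Trp53 itself was lower, with 5013 and 3131, a difference of -0.61. Apoptosis regulators had a median of 0.05 over 24 genes, and their largest difference was 0.79 for the BH3-only gene Bmf (signals 87.5 and 144.5), whose next-brightest probe gave 0.35.

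**Figure D2:**
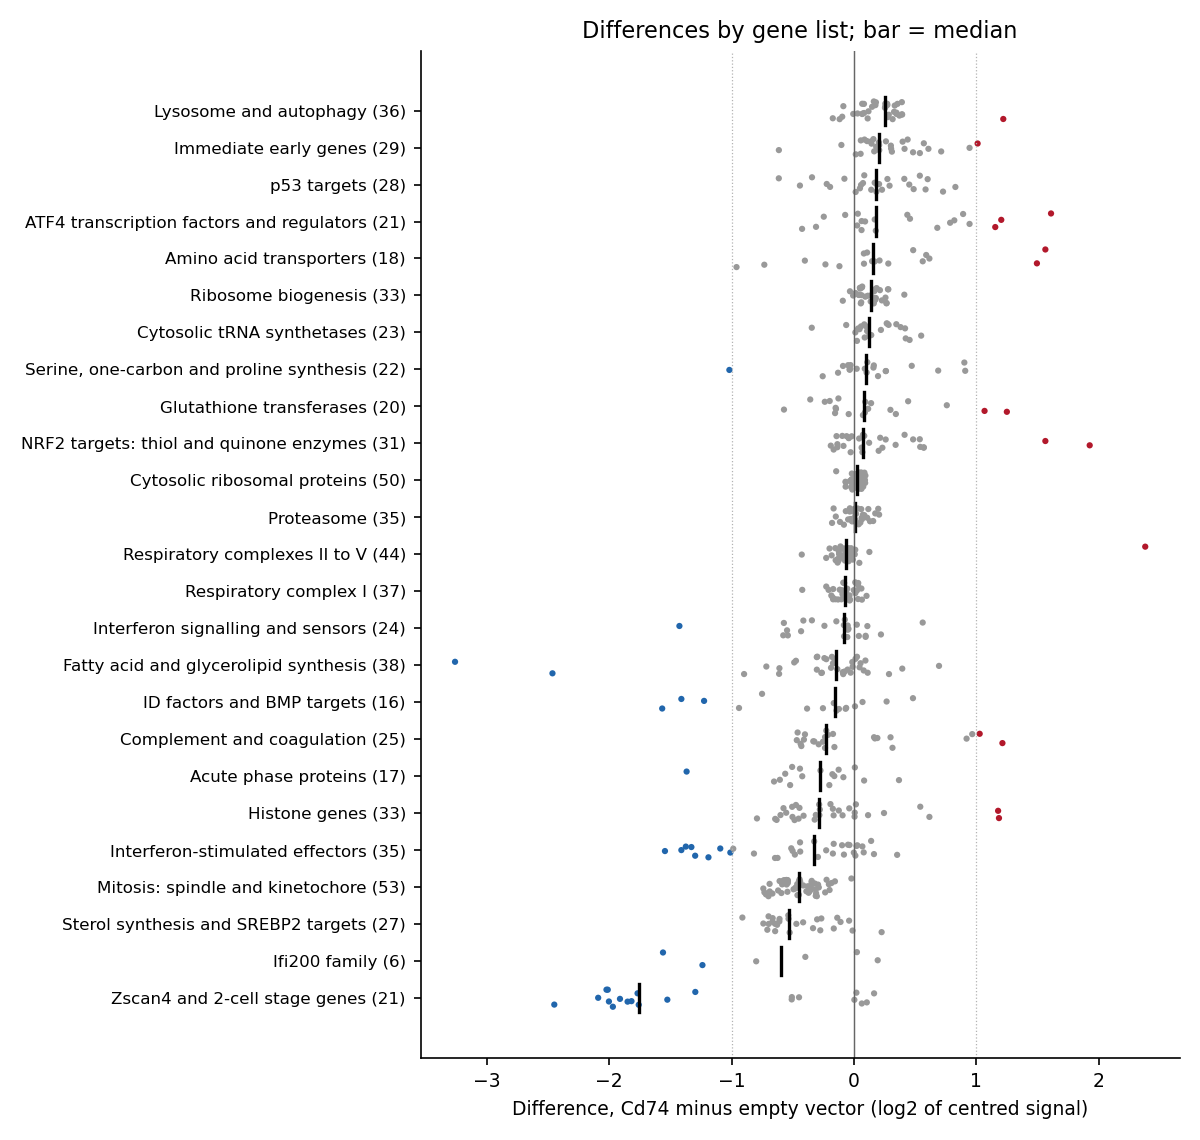
Difference of each measured member (points) in 25 of the 68 lists, with the number of members in brackets and the list median as a black bar; red and blue points are at least 2-fold higher and lower, and Cd74 is in none of these lists. The lowest median is that of the 2-cell stage genes, the mitosis list lies wholly below 0, and 26 of 27 sterol genes do; neither has a blue point.

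The ID genes, inhibitors of basic helix-loop-helix factors that BMP signals turn on, were lower at all 3 members measured. Id3, which the study's description names, had a signal of 4813 on the empty-vector array and 1968 on the Cd74 array, a difference of -1.22 (model error 0.20). Id1 had 28531 and 14224, a difference of -0.94. Id2 had 4185 and 1505, a difference of -1.41, and -0.86 by its other probe. Atoh8, a basic helix-loop-helix factor named there too, had 415 and 134, a difference of -1.57 (model error 0.21; probe at chr6:72156816-72156875, mm9), and Smad6, the inhibitory SMAD that BMP signals induce, had 265 and 150.3, a difference of -0.75. The ligand gene Bmp4 was higher, at 3883 and 5186, a difference of 0.48. Of 16 measured genes on this list, 5 were at least 1.5-fold lower and 12 below 0, with a median of -0.15. The description picked Id3, Atoh8 and Trib3 from these same samples, so the direction of these genes is no independent evidence.

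Interferon genes were lower in the list of effectors more than in that of signalling genes and sensors. Rtp4, a chaperone of G-protein-coupled receptors, had a signal of 657.5 on the empty-vector array and 215.5 on the Cd74 array, a difference of -1.54. The apolipoprotein L genes Apol9b and Apol9a had 811 and 291.5, a difference of -1.41, and 938 and 346, a difference of -1.37. Oas2, an oligoadenylate synthetase, had 70.6 and 26.9, a difference of -1.33, and -0.54 with normexp. The ubiquitin-like modifier gene Isg15 had 1041 and 405, a difference of -1.3. Of 35 measured effectors, 8 were at least 2-fold lower, 12 at least 1.5-fold lower and 0 higher by either fold. Their median was -0.33, and relative to all genes it was -0.34 by the brightest probe, -0.21 with normexp and -0.12 over the next-brightest probes of 12 members. Among 24 signalling genes and sensors, Irf7, the transcription factor that amplifies the response, had 623 and 221.5, a difference of -1.43. The other 23 stayed under 1.5-fold. They included Irf9 at -0.54, Stat2 at -0.43 and the RNA sensor gene Ddx58 at -0.57. The median of all 24 signalling genes and sensors was -0.08. With the Tmem54 vector, which shares the empty-vector control, the effectors had a median of -0.36, with Rtp4 at -1.49, Oas2 at -1.47 and Irf7 at -1.21.

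The interferon-stimulated response element was searched as GAAANNGAA on both strands. It was in 996 genes with a promoter (8.55%) and in 16 of 27 effectors, whose median was -0.46 against -0.10 for the effectors without it. The element is shown in capitals for Apol9b, which the rule names, and for Isg15, chosen after its values were seen. In Isg15 it begins 66 bases upstream of the start, and overlapping matches lie just before it. In Apol9b it begins 85 bases upstream of an annotated start on the opposite strand.
Isg15, chr4:156200846-156200914, minus strand: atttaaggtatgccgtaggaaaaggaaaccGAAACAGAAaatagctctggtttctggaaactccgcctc
Apol9b, chr15:77729006-77729074, plus strand: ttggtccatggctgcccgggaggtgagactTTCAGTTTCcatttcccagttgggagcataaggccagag

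The Ifi200 genes, DNA-sensing relatives that interferon also induces, were below 0 at 4 of 6 members and at least 1.5-fold lower at 3. Mndal had 1038.5 and 336.5, a difference of -1.56, Ifi204 1685 and 683, a difference of -1.24 and Ifi205 1018 and 559.5, a difference of -0.80, and the other probe of Ifi204 gave -1.3. With the Tmem54 vector the same genes gave 0.05, 0.12 and 0.05, so the 2 vectors had different values here while Rtp4 and Oas2 were low with both. These genes have near-identical neighbours and a probe may read more than 1 of them. H2-Q1, an MHC class I gene of the same kind of cluster, had 1119 and 314, a difference of -1.77, and the Tmem54 array gave 0.85. Of 25 MHC class I and peptide loading genes, 4 were at least 1.5-fold lower and 0 higher, with a median of 0.01. H2-T22 had 911.5 and 569.5, a difference of -0.61 and its next-brightest probe -0.38.

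Killer lectin-like receptor genes, the Klra or Ly49 family known from natural killer cells, formed the lowest of 226 symbol families with at least 8 measured genes, a grouping chosen after the values were seen. All 9 were below 0, 8 at least 1.5-fold lower, and the median was -0.90. Klra16 had 1237.5 and 586, a difference of -1.01, Klra4 1186 and 600.3, a difference of -0.92 and Klra1 1029 and 527, a difference of -0.90, with -0.21 for the next-brightest probe of Klra1. Klra13-ps had 163 and 76.1, a difference of -1.03, and -0.62 with normexp. Only Klra2 lay near 0, with signals of 89.9 and 85.4. The family median was -0.65 relative to all genes after normexp, and with the Tmem54 vector it was 0.15. The genes are near-identical copies in 1 cluster and are not independent readings.

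Chemokines went in both directions. Ccl5 had 176 and 79.4, a difference of -1.08, -0.69 with normexp, and Cxcl5, a neutrophil chemokine, had 30948.5 and 19071, a difference of -0.63, while Cxcl16 had 1692 and 2771.5, a difference of 0.78 (0.51 by its next-brightest probe) and Il1rn, the natural antagonist of the interleukin 1 receptor, 88.2 and 193, a difference of 1.19. The list had a median of 0.05 with the Cd74 vector and of -0.45 with the Tmem54 vector. The NF-kB genes had 0.06 over 28 genes, with Tnip3 at 0.66 and Traf1 at 0.61 among 3 that were at least 1.5-fold higher and 0 lower. Their Tmem54 values were -1.5 and -1.16. Cytokine receptor and JAK-STAT genes had a median of -0.07, led by Il13ra1 at -0.66 and Il1r1 at -0.61 (-0.36 with normexp), and the feedback gene Socs2 stood at 0.59.

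Mitotic genes were below 0 for every listed member. The spindle, kinetochore and cyclin B genes rise late in the cell cycle under FOXM1 and the DREAM complex. All 53 measured were below 0, against 53.3% of all genes above 0. Of these, 11 were at least 1.5-fold lower and 0 at least 2-fold, and the range ran from -0.74 to -0.02 around a median of -0.45. Nuf2, of the outer kinetochore, had 5269 and 3015, a difference of -0.74, Cenpa, the centromeric histone, 2723 and 1567.5, a difference of -0.73, Hmmr, a spindle protein, 1451 and 843, a difference of -0.72, and Cdc25c, the phosphatase that releases CDK1, 1761 and 1037, a difference of -0.70. The brightest members moved by similar amounts, with Cdc20 at -0.59 from 30926 to 19599 and Plk1 at -0.54 from 27806 to 18265. Foxm1 itself had 9135 and 6279, a difference of -0.48, and -0.68 by its other probe. With the Tmem54 vector the list's median was 0.08. The cell cycle homology region, searched as TTTGAA on both strands, was in 32 of 45 mitotic promoters and in 1789 of all genes with one (15.4%). The CCAAT box was in 36 of 45, and in 4994 of all (42.9%). Both are shown in capitals below, the CCAAT box on the opposite strand as ATTGG in Cenpa, 86 bases upstream of the start, and the homology region as TTCAAA in Ube2c, 29 bases upstream, which was chosen after its values (16533 and 9808) were seen.
Cenpa, chr5:30666770-30666834, plus strand: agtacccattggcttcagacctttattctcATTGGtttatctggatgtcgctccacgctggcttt
Ube2c, chr2:164769870-164769928, plus strand: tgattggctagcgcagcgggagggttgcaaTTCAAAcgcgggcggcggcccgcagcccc

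Genes of the G1/S step and of DNA replication were lower by less, with a median of -0.09 over 55 genes and 3 at least 1.5-fold lower. These 3 act before replication: the CDK inhibitor genes Cdkn2c and Cdkn2d had 3459 and 1774, a difference of -0.90, and 4143 and 2155, a difference of -0.88, and the cyclin gene Ccnd1 had 38794 and 20968, a difference of -0.82. Both probes of Cdkn2c were lower, at -0.97 and -0.90. Thymidine kinase Tk1 had 12521 and 7994, a difference of -0.58. Repair genes had a median of -0.03 with none at 1.5-fold. Histone genes spread in both directions: 4 of 33 were at least 1.5-fold lower and 3 higher, and the median was -0.28. Among replication-dependent genes of high signal, H2ac4 had 42436 and 27217, a difference of -0.58 and H3c3 11861 and 7258, a difference of -0.64. H2ac18, in contrast, had 3103.5 and 6715, a difference of 1.18. Histone genes are near-identical copies, and their probes may read several of them.

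Genes known from the 2-cell embryo and from the rare state of stem cells that resembles it were the lowest list of all. Of 21 measured, 13 were at least 2-fold lower (background 0.896%) and 0 at least 1.5-fold higher, and the median was -1.76. The other 8 stayed under 1.5-fold, and 5 of the 21 were above 0. Tcstv3 had a signal of 1518.5 on the empty-vector array and 362 on the Cd74 array, a difference of -2.0, Gm4340 had 1705 and 416, a difference of -1.97, and Gm20767 had 770.3 and 218, a difference of -1.76. AF067061 had 730.4 and 185.5, a difference of -1.91, and -1.98 by its other probe. The Zscan4 genes, telomere-associated factors that mark the state, were dimmer: Zscan4c had 204 and 35.7, a difference of -2.45, Zscan4b 290.1 and 68.2, a difference of -2.02 and Zscan4f 286 and 67.9, a difference of -2.01. With normexp these 3 gave -1.32, -1.37 and -1.35, and the list's median relative to all genes went from -1.78 to -1.04. Over the 9 bright members alone it was -0.47. On the Tmem54 array the same list had a median of 0.18. The family members share sequence, so 21 genes are not 21 independent readings, and a lower level in every cell cannot be told apart from fewer cells that express them. The list was put together with earlier results of these data known.

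Genes of sterol synthesis, the SREBP2-driven route from acetyl-CoA to cholesterol, were lower in its early, middle and late steps, by less than 2-fold. Of 27 measured genes 26 were below 0 and 12 at least 1.5-fold lower (background 3.23%), with a median of -0.53 and 0 at 2-fold. In the mevalonate part, Mvk had 4915 and 3239.9, a difference of -0.54, Pmvk 4933 and 3015, a difference of -0.64, Mvd 719 and 439.8, a difference of -0.64, Idi1 5479 and 3301, a difference of -0.67 and Fdps 23424 and 14689, a difference of -0.61. At the branch to sterols, squalene synthase Fdft1 had 4735 and 2790.5, a difference of -0.70 and lanosterol synthase Lss 3055 and 1748, a difference of -0.74. In the later part, Nsdhl had 1094 and 556, a difference of -0.91, Msmo1 12148 and 7611, a difference of -0.61 and Cyp51 2059 and 1273, a difference of -0.63. The next-brightest probes gave -0.77 for Fdft1, -0.64 for Msmo1 and -0.47 for Lss, but -0.10 for Nsdhl and, for Dhcr7, 0.20 against -0.70. The regulator Insig1, which holds SREBP in the endoplasmic reticulum, had 164 and 99.1, a difference of -0.66 (-0.41 with normexp). On the Tmem54 array the list's median was 0.11. The sterol element, searched as TCACNCCAC on both strands, was in 1 of 20 promoters, that of Hmgcs1. It was in 161 of all genes with a promoter (1.38%). The CCAAT box, which binds the SREBP partner NF-Y, was in 18 of 20, and in 42.9% of all genes with a promoter. In Nsdhl, shown with its box in capitals as ATTGG on the opposite strand, it begins 20 bases upstream of the start.
Nsdhl, chrX:72918471-72918520, plus strand: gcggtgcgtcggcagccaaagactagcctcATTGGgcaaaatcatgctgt

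Genes of fatty acid and glycerolipid synthesis were lower at fewer steps. Scd2, a stearoyl-CoA desaturase, had 37654 and 19319, a difference of -0.90, and the acyl-CoA synthetase gene Acsl5 had 5647 and 3533, a difference of -0.61, with -0.12 for its next-brightest probe. The triglyceride-forming enzyme gene Dgat2 was higher, with 1231 and 1906, a difference of 0.70. Gpam, the first acyltransferase of glycerolipid synthesis, and Plin5, a lipid droplet protein, had the lowest differences of the list, -3.26 and -2.46. Their Cd74 signals of 17.1 and 22.4 were near background, from 171 and 129.6 with the empty vector, and normexp gave -1.39 and -1.0. Both were also lower on the Tmem54 array. Gpam read 10.15 there, not well above background, and Plin5 read 62.16, a difference of -1.07 from the empty vector. The list's median was -0.15, with 28 of 38 below 0. Oxidation and peroxisome genes had a median of -0.03 over 42 genes, and their single 2-fold member was Acot2, a mitochondrial acyl-CoA thioesterase, with 332 and 1013, a difference of 1.67.

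Respiratory chain genes shifted little but mostly one way. Complex I had 28 of 37 members below 0 and complexes II to V 39 of 44, with medians of -0.07 and -0.07. The exception was Cox6a2, the cytochrome c oxidase subunit usual in heart and skeletal muscle, which had 91.1 and 454, a difference of 2.38, 1.82 with normexp, and was the highest bright gene after Cd74. The same gene's Tmem54 signal was 43.0. TCA cycle and glycolysis lists had medians of -0.08 and -0.10, each with 1 member at 1.5-fold: Pdk2 with 38.8 and 69.3, a difference of 0.90 (0.51 with normexp), and Ndrg1, a hypoxia-responsive gene, with 5764 and 8778, a difference of 0.67.

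Families that make up the basic machinery stayed close to 0. The 50 cytosolic ribosomal protein genes ranged from -0.14 to 0.09, and the 35 proteasome genes from -0.18 to 0.21. Against that, ribosome biogenesis factors, which assemble ribosomes in the nucleolus, had 30 of 33 members above 0, a median of 0.14 and a highest value of 0.41 for Polr1b, a subunit of RNA polymerase I.

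Among symbol families, the largest by size that shifted was that of Zfp genes, most of which encode zinc finger proteins and many of which silence retroelements. This family was chosen after its values were seen. Of 331 measured, 265 were above 0, a larger share than the 53.3% of all genes, with 10 past 1.5-fold upward and 1 downward. The median was 0.20. By signal quartile, from lowest to highest, the median was 0.14, 0.23, 0.18 and 0.15, so the shift did not sit with dim genes only. Zfp809, which silences murine leukemia virus, had 144 and 339, a difference of 1.3, but its next-brightest probe gave 0.21. Zfp661 had 286 and 471, a difference of 0.78 and Zfp296 914 and 1419.6, a difference of 0.70. The lowest was Zfp467, with 442 and 258, a difference of -0.71. The highest median of all families was 0.38, for the 9 genes named Pla. The Zscan, Dhrs and Akap families had 0.23, 0.22 and 0.20. The Zscan family was split: 9 of 13 were above 0, but 4 were at least 2-fold lower, with Zscan4c lowest at -2.45. Further families above 0 were the tRNA methyltransferase genes named Trmt, with a median of 0.24 over 17 and 13 above 0, the histone demethylases named Kdm, with 0.19 over 17, the RNA-binding genes named Rbm, with 0.17 over 33, and the nucleolar Utp genes, of which 11 of 11 were above 0. With the Tmem54 vector the same medians were -0.02 for Zfp, -0.03 for Trmt and -0.02 for Rbm.

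**Figure D3:**
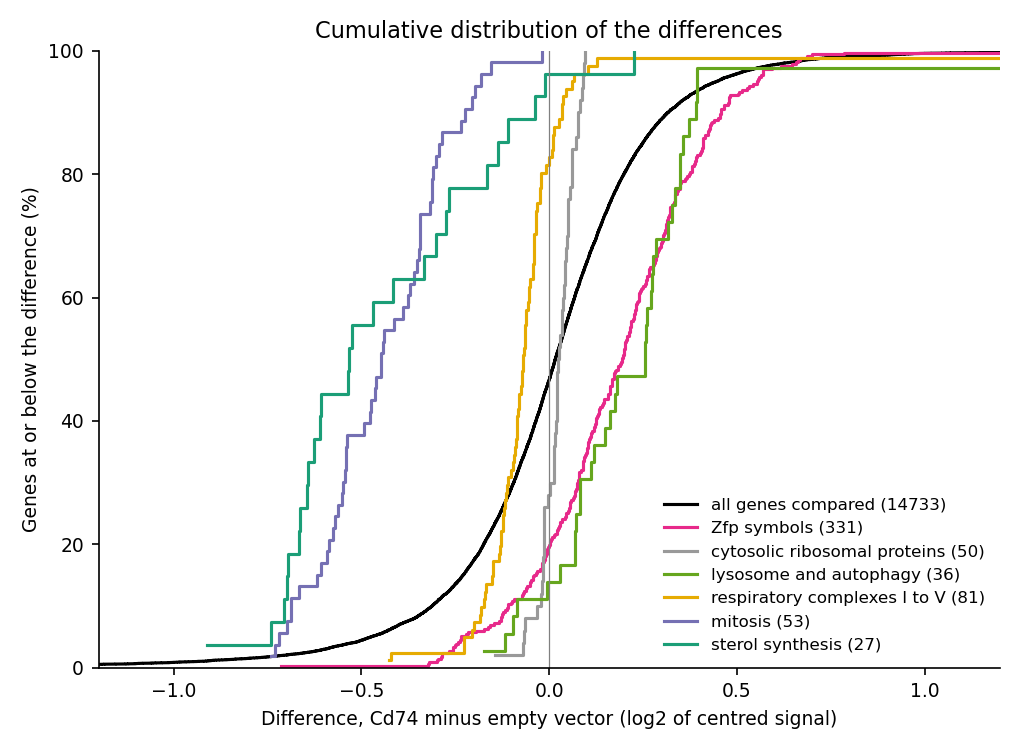
Share of genes (vertical, percent) at or below each difference (horizontal, log2) for all 14733 genes and for 6 groups with their sizes in brackets; the axis is cut at -1.2 and 1.2. The ribosomal proteins rise steeply at 0, the 331 Zfp genes lie to the right of all genes, and the 53 mitosis genes lie wholly below 0.

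The lists of liver genes had medians below 0 by the brightest probe, with members in both directions. Of 18 measured genes for secreted and carrier proteins of hepatocytes, 8 were above 0 and 10 below, with a median of -0.090, and only Alb reached 1.5-fold. Alb, albumin, had 5727 and 2993, a difference of -0.87, with both probes near that value (-0.92 and -0.87), and a signal of 10261 with the Tmem54 vector. The hepatocyte marker list had 8 of 15 genes well above background with the empty vector and 7 with the Cd74 vector, and Ahsg, Apoa1, Apob, Cps1, Fgb, Hnf4a and Ttr were so on none of the 3 arrays. Its summed signal was 56796 with the empty vector and 42208.6 with the Cd74 vector, most of it from transferrin (Trf, 47713.5 and 36431). Acute phase genes had a median of -0.27, with 14 of 17 below 0: Lbp, which binds lipopolysaccharide, had 1759 and 1172, a difference of -0.52 and Il6ra 3496 and 2355, a difference of -0.50, while Crp was dim, at 46.8 and 17.4, where -1.37 became -0.27 with normexp. Complement and coagulation genes had 4 of 25 members at least 1.5-fold higher and 0 lower, and a median of -0.23, which turned to 0.08 relative to all genes over the next-brightest probes of 8 members. The complement genes C3 and C1s1 had 37678 and 27132, a difference of -0.41, and 14066 and 9728, a difference of -0.47, but F3, tissue factor, had 586 and 1299, a difference of 1.21, and Cfi, complement factor I, 1164 and 2269, a difference of 1.03.

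Liver transcription factors had a median of -0.07 over 31 genes. Tbx3, a target of Wnt signals in liver, had 5048 and 3234, a difference of -0.58, and Nr1h4, the bile acid receptor FXR, 402 and 235, a difference of -0.71, with -0.22 by its next-brightest probe. Creb3l3, a factor of hepatic lipid metabolism, went from 13.4 to 29.7, 1.22 that became 0.35 with normexp. The targets of AHR, a receptor that this line is widely used to study, had a median of 0.20 over 11 genes: Cyp1a1 had 1529 and 2005, a difference of 0.46 and Ugt1a6b 2956 and 4395, a difference of 0.64. Other cytochromes P450 had a median of 0.03, with Cyp2s1 at 1746 and 983, a difference of -0.76. The efflux pump gene Abca1, which loads cholesterol onto lipoproteins, had 1209 and 746, a difference of -0.63, and Slco3a1, an organic anion carrier, 121 and 41.2, a difference of -1.48, with -0.67 after normexp. Urea cycle and gluconeogenesis genes had a median of -0.06 with 0 of 18 at 1.5-fold.

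Markers of other cell types were checked beside these groups. The fibroblast and stellate markers had 8 of 12 genes well above background on both arrays and a summed signal of 90918 and 92042.4, of which Dcn gave 67724 and 75618; Lum, Thy1, Reln and Lrat were at background on every array. Col1a1 had 8430.5 and 4747, a difference of -0.76. The macrophage, B and T cell markers had 10 and 9 of 14 genes above background, with summed signals of 14385.2 and 13258.1, and Adgre1, Cd79a, Cd79b and Cd8a at background on every array. The brightest of them were Ptprc, with 3711.1 and 3095.8, Csf1r, with 3625.5 and 3001.4, and Cd14, with 2701.9 and 2637.5. Cholangiocyte and progenitor markers had 7 of 9 genes above background on both arrays, with summed signals of 45016.3 and 39544.6. Endothelial markers had 4 of 9, with 263.0 and 304.9. Whether these cell types were present, or had a part in the differences of liver, matrix and immune genes, was not tested.

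In the matrix, the secreted glycoprotein gene Sparc had 116209.5 and 79662, a difference of -0.48. The protease genes Mmp3 and Mmp13 had 1921 and 3970.4, a difference of 1.11, and 1431 and 2654, a difference of 0.96, while their inhibitor Timp3 had 5014 and 2747, a difference of -0.80 (-0.53 by its next-brightest probe). Matrix and integrin lists had medians of -0.08 and -0.09. In the Wnt list the negative feedback genes Rnf43 and Axin2 and the receptor gene Lgr5, all known Wnt targets, had 4690.1 and 2405, a difference of -0.90, 2671 and 1655, a difference of -0.62 and 3352 and 1699, a difference of -0.91, whereas the transcription factor gene Lef1 had 356 and 539, a difference of 0.67. The list counted 4 genes at least 1.5-fold lower and 2 higher among 30, with a median of -0.10. Among targets of YAP and TGF-beta, Tgfb3 had 3359 and 2019, a difference of -0.67, and Ccn1 and Ccn2 stood at 0.57 and 0.41. Angpt1, a ligand of the TIE2 receptor, was the lowest bright gene, with 560.2 and 129, a difference of -2.06, and the angiopoietin-like gene Angptl6 the highest after Cd74 and Cox6a2, with 398 and 1504, a difference of 1.98. No member of the ephrin list reached 1.5-fold, and neither did any of 25 junction genes. Tuba8, an alpha-tubulin, had 4175 and 2314, a difference of -0.79 among 38 cytoskeletal genes with a median of -0.08.

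**Figure D4:**
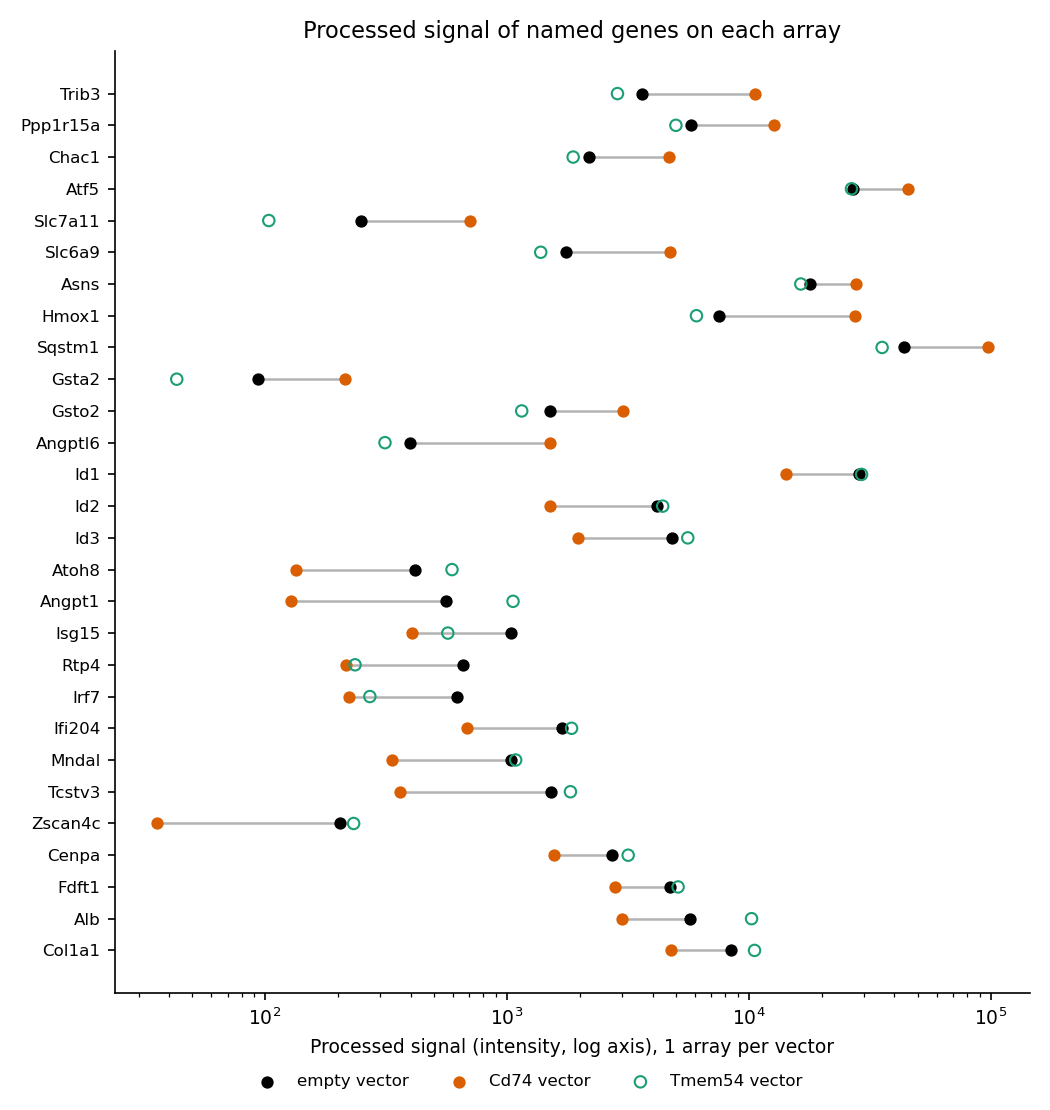
Processed signal (horizontal, log axis) of 28 named genes with the empty (black), Cd74 (orange) and Tmem54 (green ring) vectors, 1 array each; grey lines join the empty and Cd74 values. From Trib3 to Angptl6 the Cd74 point lies to the right, from Id1 down to the left, and for Rtp4 and Irf7 the Tmem54 ring lies near the Cd74 point.

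Among the bright genes without a list, the predicted gene Gm10639 had 254 and 597, a difference of 1.3 and Crct1, a gene of the epidermal barrier, 265 and 602, a difference of 1.25 on the higher side. On the lower side AA684185 had 1106 and 297, a difference of -1.83, and Nrep, a neuronal regeneration protein, 569.7 and 188, a difference of -1.53. Beside these, S100a4, a calcium-binding protein chosen after its value was seen, was the brightest gene at least 2-fold lower, with 30036 and 12519.7, a difference of -1.2.

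Genes read by several probes give a check within the arrays. Of 6548 such genes, the brightest probe put 10 at least 2-fold higher, and every probe did so for 2 of them. On the lower side the counts were 13 and 6. At 1.5-fold, 77 higher genes became 21 by every probe and 100 lower genes became 39, while the next-brightest probe kept the sign for 72 of the 77 and 86 of the 100. Those 2 higher genes were Slc7a11 and Nr4a2. Past 1.5-fold by every probe followed Nupr1l, related to the stress gene Nupr1, with 2603 and 4424, a difference of 0.83, the phosphatase gene Ptpn14 with 112 and 197, a difference of 0.88, and the histone gene H3c15 with 275 and 488, a difference of 0.89. The 6 lower genes were AF067061, Ifi204, Klra13-ps and 3 others: Hacd4, an enzyme of very long fatty acids, had 197.5 and 70.4, a difference of -1.42, Rapgef5, an exchange factor of RAP GTPases, 101 and 34.9, a difference of -1.47, and Bend6, a Notch-pathway repressor, 59.9 and 23.4, a difference of -1.29. These 3 were dim and normexp gave -0.91, -0.64 and -0.38. At higher signal, Ly6c1 had 4589 and 2329, a difference of -0.91, Gas2l3, a cytoskeletal linker, 708.5 and 378, a difference of -0.84, and the transcription factor gene Maf, read by 3 probes between -1.61 and -0.86, 1784 and 825, a difference of -1.05.

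**Figure D5:**
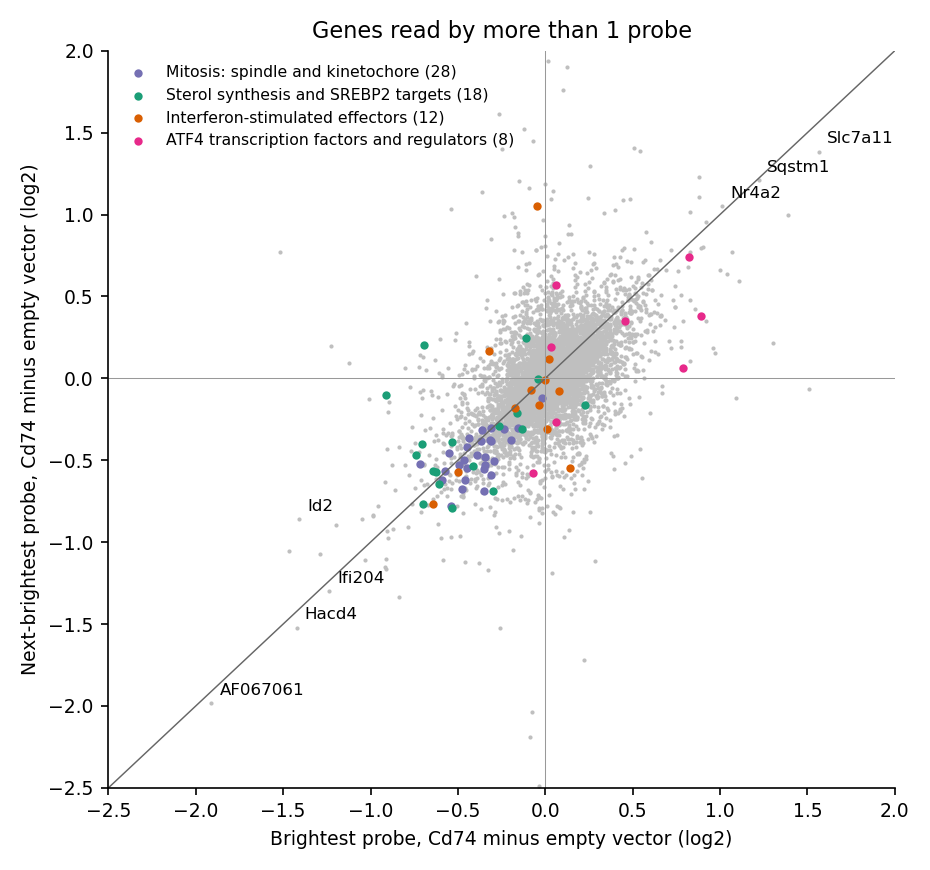
Difference by the next-brightest probe (vertical) against the brightest probe (horizontal), both log2, for 6548 genes read by more than 1 probe, of which 1 lies outside the range drawn; the diagonal marks equal values. Slc7a11, Nr4a2, AF067061, Hacd4 and Ifi204 lie near the diagonal, and the mitosis genes are below 0 on both axes.

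Where a gene was well above background on 1 of the 2 arrays, only a bound can be given. It divides the bright signal by the probe's own dim signal or, if that is lower, by the smallest signal still above background on that array. By the brightest such probe of each gene, 347 genes were seen only with the Cd74 vector, of which 97 were at least 2-fold higher, and 591 only with the empty vector, of which 91 were at least 2-fold lower. Of these genes, 12 had another probe seen only on the opposite array. By size, the bounds began with Pdcd1, the immune receptor PD-1, at least 22.2-fold higher (278.0 with the Cd74 vector), followed by at least 17.7-fold for Kynu, kynureninase of tryptophan breakdown (221.6), 17.19-fold for 4930539C22Rik (215.2), 17-fold for Gm10825 (212.9) and 15.66-fold for Hbb-b1, a beta globin (196.1). On the other side they were at least 12.11-fold lower for Lipo1, a lipase (170.9 with the empty vector), 11.51-fold for Dact1, a Wnt pathway modulator (162.4), 10.03-fold for Pik3c2g, a PI3-kinase (141.5), 9.92-fold for Dach2 (140.0) and 9.19-fold for Klrb1f, a lectin-like receptor (129.6). The Tmem54 signals of these lower genes were, in the same order, 3.2, 31.4, 6.1, 3.2 and 3.0. Those of the higher genes named lay between 3.0 and 3.3. All of these signals were below the median of 367.1 for measured probes, and the sizes hold for this processing only.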

How the data were processed

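Groups were taken from the transfection label. The deposited intensity of each spot, the processed signal of Agilent Feature Extraction 12.0.3.1, is named in the submitters' processing notes. The file headers place the 3 arrays on 1 slide. The deposited value table, unit ratio, equals that signal divided by 580.3, 559.8 and 580.7 for the empty, Cd74 and Tmem54 arrays. Its values are thus linear, with each array scaled by its own constant, and their direction is that of the signal. The column medians were 0.0409, 0.0393 and 0.039. The value table was used as an alternative only. Controls and outlier-flagged spots were left out, log2 signals were centred on each array's 75th percentile, and replicate spots were averaged. Probes were named through a table of RefSeq genes (GRCm38.p6), 34596 by accession, 9176 by symbol and 284 by synonym; 12549 stayed unnamed. Probe positions are mm9 and were not converted. Columns of other samples numbered 0. Members, lists and rules were chosen with earlier results of these data known. Named genes are the 12 highest and 12 lowest bright genes (brighter signal at least 367.1), up to 4 members per list, 15 per direction by every probe, and 5 bounds per direction; further list members were chosen after their values were seen. Some genes that these rules name, 1 of the 12 highest among them, are not reported here. Alternatives were normexp with an offset of 50 (limma 3.58.1), median centring, quantile normalization, bright genes only, bounds added, other probe rules and the value table. The counting step was tested on simulated data. Nothing says how many cultures an array holds.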

Additional observations from a re-analysis of the deposited data

How the results depend on the processing

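No paired analysis was possible because each vector has 1 array, and for the same reason no replicate could be left out. The 63 genes at least 2-fold higher and 132 lower became 28 and 43 with normexp, 23 and 30 among bright genes only, and 160 and 223 with bounds added. The share of higher genes among those counted was 32.3% and moved to 43.4% among bright genes; the other settings gave 29.5% to 41.8%. Relative to all genes, the median of interferon-stimulated effectors went from -0.34 to -0.21 with normexp, -0.20 among bright genes and -0.12 with next-brightest probes; that of 2-cell stage genes from -1.78 to -1.04 with normexp and -0.47 among bright genes; that of Ifi200 genes from -0.61 to -0.82 among bright genes; that of hepatocyte markers from -0.28 to -0.14 with normexp; and with next-brightest probes that of acute phase genes from -0.29 to -0.18 and of sterol genes from -0.55 to -0.40. Next-brightest probes turned the sign for Cd74, MIF and MHC class II (-0.036), complement and coagulation (0.078), Notch and Hedgehog (-0.053) and macrophage, B and T cell markers (0.070). Some lists that lay nearer to all genes changed sign too, such as Tribbles and AKT, from 0.040 to -0.111, and apoptosis regulators, from 0.037 to -0.015. The cause of these moves was not tested; bright genes and next-brightest probes use fewer genes. Of 290 named genes, 78 moved by more than their model error with normexp and 19 with the mean of probes. Among those at least 1.5-fold apart, 0 reversed. Median centring and quantile normalization moved none of the 290. Dim signals limit the fold changes, and the number of arrays limits all values.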
